A study of Mus musculus with 4 samples.

Results

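Transcripts of 10 genes that mark microvillar, tuft and ionocyte cells were followed in sorted cells of the regenerated mouse olfactory epithelium. The genes were chosen by name, as markers of these cells, and all 10 were among the 23337 gene symbols counted. They form 2 sets. The first is made of 6 genes of tuft-like and microvillar chemosensory cells (Pou2f3, Trpm5, Gnat3, Chat, Avil and Il25), and the second of 4 genes of ionocytes and Ascl3-positive microvillar cells (Foxi1, Ascl3, Cftr and Coch).

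Libraries came from Tomato-positive cells of 4 mice, 1 mouse per sample, with 2 mutant (Lmnb1-/-) and 2 control (Lmnb1+/-) samples. All mice carried the K5Cre transgene, in which the keratin 5 promoter drives Cre recombinase in horizontal basal cells, and a Cre-dependent tdTomato allele (R26 Ai9), and had 2 (mutant) or 1 (control) Lmnb1 allele with exon 2 between lox sites. All received 2 injections of 50 mg/kg methimazole, which damages the epithelium, and recovered for 4 weeks. Each tissue was therefore a mosaic, of which the Tomato-positive cells were sorted. The background was mixed, although the K5Cre line and the line with the lox-flanked Lmnb1 allele had been backcrossed to B6. Mice were 2 to 6 months old. The mice formed 2 experimental groups of 1 control and 1 mutant, matched within a group for parents, age, sex, treatment and preparation but not between groups. Sequencing was also shared within a group. Control 1 and mutant 1 are the samples of experimental group 1, and control 2 and mutant 2 those of experimental group 2.

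Microvillar cells are non-neuronal cells at the apical surface of the olfactory epithelium. One kind carries the channel Trpm5, depends on the transcription factor Pou2f3 and resembles the tuft (brush) cells of the airway and gut, which release acetylcholine, interleukin 25 and lipid mediators. A further kind expresses the transcription factor Ascl3 and shares Foxi1 and the chloride channel Cftr with ionocytes, the ion-transporting cells of the airway. Both kinds can be formed by horizontal basal cells, the reserve stem cells of this tissue.

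Counts assigned to genes came to between 14833396 and 23704638 per sample. Alignments outside genes made up 39.41% of the total in mutant 1 (95% Wilson interval 39.39 to 39.43, counting error only), against 22.1% to 24.9% in the other samples. Over 3746 genes with no count in the other 3 samples, mutant 1 had a median of 1.80 counts per kb of exon, called its even background here. Lmnb1 itself had 20.6 and 18.8 CPM (counts scaled to a common library size) in controls and 14.1 and 10.1 in mutants, without overlap (log2 fold change -0.72 ± 0.31 SE, adjusted p = 0.195), over a count that includes exons outside the deletion. Of 15438 genes tested, 664 were lower and 197 higher in mutants. The labelled tissue held its defining cells, since the 12 mature olfactory neuron markers summed to between 2530 and 19679 CPM.

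To show the DNA next to the start sites of these genes, the 250 bases upstream of the RefSeq start (GRCm38.p6) were read for the 8 of 10 genes that had an entry. Pou2f3 and Il25 were not among them. In the main fit Trpm5 passed the test between genotypes, Chat had the largest fold change and Foxi1 the smallest. The windows of these 3 genes are shown. They are written 5′ to 3′ on the strand of the gene, and capitals mark E-boxes (CANNTG), the letters bound by basic helix-loop-helix factors such as Ascl3.
Trpm5 (chr7:143094643-143094892, minus strand): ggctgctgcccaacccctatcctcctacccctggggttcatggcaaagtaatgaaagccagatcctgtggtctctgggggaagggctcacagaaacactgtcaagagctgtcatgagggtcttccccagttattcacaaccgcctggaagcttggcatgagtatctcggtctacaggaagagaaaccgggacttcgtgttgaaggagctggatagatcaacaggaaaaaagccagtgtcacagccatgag
Chat (chr14:32465910-32466159, minus strand): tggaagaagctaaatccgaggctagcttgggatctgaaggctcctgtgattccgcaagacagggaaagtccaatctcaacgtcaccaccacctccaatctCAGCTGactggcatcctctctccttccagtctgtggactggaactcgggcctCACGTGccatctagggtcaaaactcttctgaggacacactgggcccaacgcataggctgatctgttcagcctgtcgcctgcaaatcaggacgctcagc
Foxi1 (chr11:34208090-34208339, minus strand): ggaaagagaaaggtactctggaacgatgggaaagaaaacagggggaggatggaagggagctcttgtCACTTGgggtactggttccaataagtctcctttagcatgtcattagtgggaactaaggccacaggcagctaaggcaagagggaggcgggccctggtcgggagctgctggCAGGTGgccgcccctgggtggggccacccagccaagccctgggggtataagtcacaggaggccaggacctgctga

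The Chat window held 2 E-boxes, starting 150 and 98 bases before the start, and the Foxi1 window held 2, starting 184 and 75 bases before it. The Trpm5 window held none. Among the other windows, Gnat3 held 5 and Ascl3 held 1, CACGTG at 161 bases before the start, while Avil, Cftr and Coch held none. An E-box was found in 66.2% of the 32851 mouse promoter windows of this length, and in 4 of the 8 windows here. The octamer ATGCAAAT of POU factors, the family of Pou2f3, and the forkhead core TGTTTAC, of the family of Foxi1, were searched on both strands. Neither was found in any of the 8 windows. The octamer was in 1.6% and the forkhead core in 3.17% of all windows. No E-box therefore overlapped a match of the other motifs, and a match of letters is no evidence of binding.

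All 10 genes passed the filter of over 1 CPM in at least 2 samples. Of these, 8 were over 1 CPM in all 4 samples, whereas Gnat3 was in 3 and Chat only in the 2 controls. Levels between genes were compared as CPM per kb of exon. Coch, which encodes the secreted protein cochlin, had the highest mean at 111.6 CPM per kb, with a range over the 4 samples of 89.6 to 137.6. Ascl3 came next at 24.3 CPM per kb, with a range of 20.7 to 31.9. Neither range overlapped that of the next gene.

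Trpm5 (mean 10.4 CPM per kb), Avil (9.22) and Foxi1 (7.30) followed, and the ranges of each neighbouring pair in this order overlapped. The range of Foxi1, 6.57 to 7.84 CPM per kb, did not overlap that of Cftr, whose mean was 3.34. Below Foxi1, neighbours in the order Cftr, Gnat3 (2.95), Il25 (2.39) and Pou2f3 (1.98) had overlapping ranges. Chat was the lowest, at a mean of 0.387 CPM per kb, and was under Pou2f3 in all 4 samples.

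**Figure D1:**
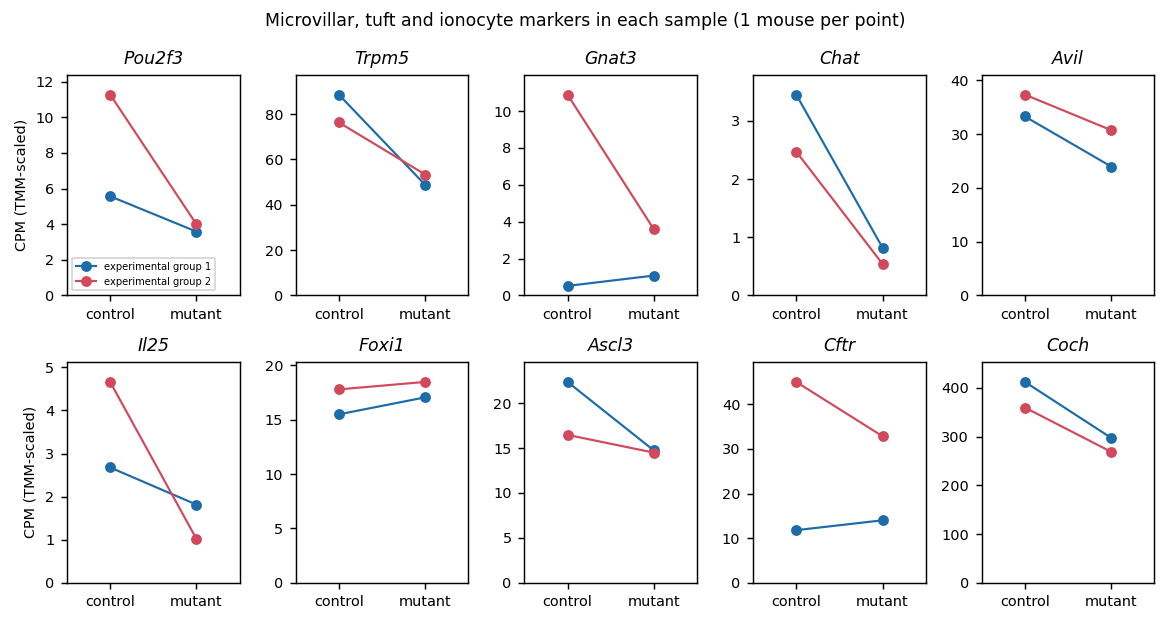
Level of each marker in CPM (linear axis from 0, on TMM-scaled library sizes) in control and mutant samples, with 1 point per mouse and a line joining the 2 mice of an experimental group (blue, group 1; red, group 2). The lines of Trpm5, Pou2f3, Chat, Avil, Il25, Ascl3 and Coch fall in both groups, those of Foxi1 rise slightly in both, and those of Gnat3 and Cftr run in opposite directions.

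To ask which markers differed when Lmnb1 was deleted, mutants were compared with controls within experimental groups by the edgeR likelihood-ratio test. Of the 10 markers, 1 (Trpm5) was lower and none was higher at an adjusted p under 0.05, beside 4.3% lower and 1.28% higher among all genes tested. At an unadjusted p under 0.05 there were 3 (Trpm5, Chat and Pou2f3), beside 15.9% of all genes. Chat passed the filter only through the controls, where it was higher, and without it 2 of 9 were under 0.05. By DESeq2, 2 markers were lower (Trpm5 and Coch) and none higher, but Pou2f3, Gnat3, Chat and Il25 got no adjusted p there and could not be called. The log2 fold change was negative for 9 of 10 and had a median of -0.42, beside a median of -0.01 over all genes tested, of which 51.1% were negative. Without Chat, 8 of 9 were negative and the median was -0.39.

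Both controls were above both mutants for 7 of the 10 markers, and no marker had both mutants above both controls. Among all genes tested, 13.4% were lower and 12.5% higher in mutants without overlap. Without Chat the count was 6 of 9. The 7 markers (Pou2f3, Trpm5, Chat, Avil, Il25, Ascl3 and Coch) were the ones that were lower in the mutant in both experimental groups, as were 32.9% of all genes. The markers were chosen together as genes of the same cells and are not independent of each other, so the count of 7 carries no test. In bulk RNA of sorted cells, fewer cells of a type and less RNA per cell cannot be told apart.

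**Figure D2:**
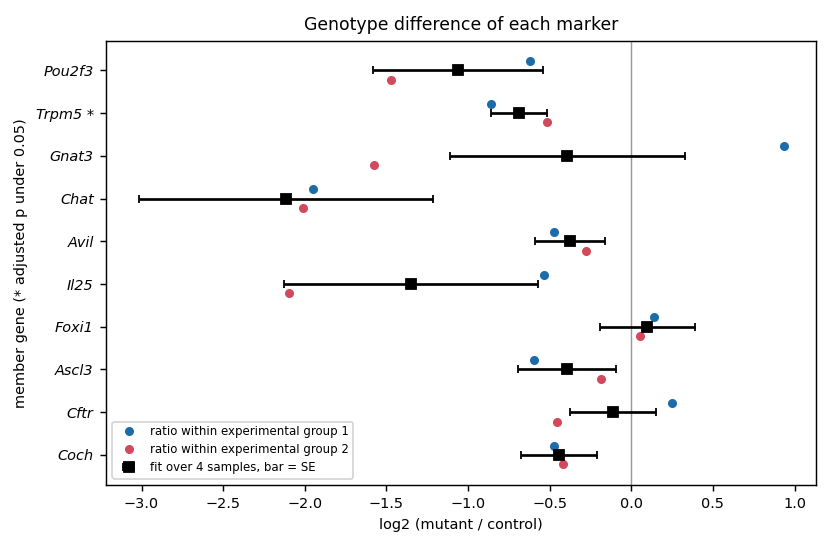
Genotype difference of each marker as log2 (mutant / control): squares and bars are the fitted log2 fold change and its SE over the 4 samples, and circles are the ratios of the single mutant to the single control within experimental group 1 (blue) and group 2 (red). Trpm5, marked with an asterisk, passed an adjusted p of 0.05 at -0.69 ± 0.17, and the widest bars belong to Chat, Il25 and Gnat3.

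Pou2f3 is the transcription factor that tuft-like cells require. It lies on the minus strand at chr9:43123939-43210369 (mm10), with 3088 bp of exon. It had 129 and 237 counts in controls and 83 and 59 in mutants, or 5.57 and 11.3 CPM against 3.59 and 3.99 CPM. Both mutants were below both controls, although the controls themselves differed by 2.02-fold. Its log2 fold change of -1.06 ± 0.52 (SE) missed the threshold (adjusted p = 0.299 in edgeR).

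Trpm5 encodes the calcium-activated cation channel that depolarises taste, tuft and Trpm5-positive microvillar cells. It is on the minus strand at chr7:143069153-143094642, with 6398 bp of exon. Its level was 88.6 and 76.3 CPM in controls (2052 and 1604 counts) and 48.8 and 53.3 CPM in mutants (1129 and 788 counts). The controls were close to each other, as were the mutants, and the groups were separate. The mutant had 55.1% of the control level in experimental group 1 and 69.9% in group 2.

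Trpm5 fell by 0.69 on the log2 scale (SE 0.17, adjusted p = 0.00318 in edgeR), a 1.61-fold lower level in mutants. It passed in each of 7 alternatives that kept the matching by experimental group, with adjusted p from 0.00151 to 0.0336 (edgeR or DESeq2). It did not pass without that matching (log2 fold change -0.69, adjusted p = 1) or when any 1 sample was left out and the matching with it (log2 fold changes -0.75 to -0.57, adjusted p from 0.888 to 1). Trpm5 is also transcribed in some olfactory sensory neurons. Of 12 mature olfactory neuron markers, 11 were lower in mutants, with a median log2 fold change of -1.35. Their summed level was 19679 and 8604 CPM in controls against 10509 and 2530 CPM in mutants. Control 2 was below mutant 1 in this sum, to which Omp gave the most, but above it in 5 of the 12 markers and in their median level (543 against 449 CPM). The part of neurons in the Trpm5 result was not tested.

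Gnat3, the G protein subunit gustducin of taste and tuft cells, did not pass between genotypes. In experimental group 1 it had 12 counts in the control and 25 in the mutant (0.518 and 1.08 CPM), and in group 2 it had 229 and 53 (10.9 and 3.59 CPM). Both samples of experimental group 2 were above both of group 1, and the genotypes overlapped. The mutant was higher in group 1 (log2 ratio 0.94) and lower in group 2 (-1.58). The fitted log2 fold change was -0.39 ± 0.72 (adjusted p = 0.904 in edgeR). An interval of about 2 SE to each side ran from -1.81 to 1.02, so a genotype difference was not excluded. The gene is on the plus strand at chr5:17962549-18019834, with 1361 bp of exon.

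Chat encodes choline acetyltransferase, which makes acetylcholine. It had 80 and 52 counts in controls against 19 and 8 in mutants, or 3.45 and 2.47 CPM against 0.821 and 0.542 CPM. Both mutants were below both controls without overlap, at 23.8% of control in experimental group 1 and 21.9% in group 2. With these few counts the log2 fold change of -2.12 had an SE of 0.90 and missed the threshold (adjusted p = 0.191 in edgeR).

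The even background of mutant 1 comes to 8.47 counts over the exons of Chat, or 44.6% of the 19 counts there. With the background subtracted, a setting chosen after the values were seen, the log2 fold change was -2.50 and the adjusted p 0.120. For the other 9 markers the background came to between 0.0784% and 9.81% of the mutant 1 count. Chat is on the minus strand at chr14:32408203-32465989, with 4703 bp of exon. Slc18a3, the vesicular acetylcholine transporter, lies within it on the same strand at chr14:32462438-32464850. It had 5 counts in mutant 1, where the even background comes to 4.35, and none in the other samples.

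Avil encodes advillin, an actin-bundling protein of tuft cell microvilli. It is at chr10:127000709-127020994 on the plus strand, with 3398 bp of exon. It was at 33.3 and 37.3 CPM in controls and 24.0 and 30.7 CPM in mutants (454 to 785 counts). The genotypes did not overlap, but mutant 2 and control 1 were close. Its log2 fold change was -0.38 ± 0.21 (adjusted p = 0.401). Advillin is also made by peripheral sensory neurons. Of 7 markers of these neurons, 2 (Prph and P2rx3) were tested and neither passed, and the 7 reached a summed level of 49.4 and 44.1 CPM in the controls, against 38.1 and 37.8 CPM in the mutants. Scn10a was at 0 in control 1, and the part of these neurons was not tested.

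Il25, the cytokine by which tuft cells start type 2 immunity, had 62 and 98 counts in controls and 42 and 15 in mutants. These correspond to 2.68 and 4.66 CPM against 1.81 and 1.02 CPM. The mutants were lower in both experimental groups, at 67.8% of control in group 1 and 21.8% in group 2. The log2 fold change of -1.35 ± 0.78 missed the threshold (adjusted p = 0.440). Il25 is on the plus strand at chr14:54932695-54935837, with 1064 bp of exon in 3 blocks.

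The 6 tuft-like genes together had a median log2 fold change of -0.88 (-0.69 for the 5 without Chat), and their summed level was 134 and 143 CPM in controls against 80.0 and 93.2 CPM in mutants. Most of this sum came from Trpm5.

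Foxi1, the forkhead factor that specifies ionocytes, had the smallest fold change of the markers in the main fit. It had 359 and 374 counts in controls and 395 and 273 in mutants, or 15.5 and 17.8 CPM against 17.1 and 18.5 CPM. All 4 samples were close and the genotypes overlapped. The log2 fold change was 0.10 ± 0.29 (adjusted p = 0.944 in edgeR), and an interval of about 2 SE to each side ran from -0.47 to 0.67. By DESeq2 Cftr had a smaller change (-0.098) than Foxi1 (0.109), so the order of these genes depended on the method. Foxi1 is on the minus strand at chr11:34204338-34208089, with 2357 bp of exon in 2 blocks.

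Ascl3, the basic helix-loop-helix factor of the second microvillar cell kind, was at 22.4 and 16.5 CPM in controls and 14.7 and 14.5 CPM in mutants (214 to 518 counts). Control 1 was above the other 3 samples, and the genotypes did not overlap. This gave a log2 fold change of -0.39 ± 0.30 (adjusted p = 0.605). The ratio was -0.60 in experimental group 1 and -0.18 in group 2. Ascl3 is on the minus strand at chr7:109727465-109731726, with 700 bp of exon.

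Cftr, the chloride channel enriched in ionocytes, differed between experimental groups and did not pass between genotypes. In experimental group 1 it had 273 counts in the control and 324 in the mutant (11.8 and 13.995 CPM), and in group 2 it had 946 and 485 (45.0 and 32.8 CPM). Both group 2 samples were above both group 1 samples, and the genotypes overlapped. The mutant was above its control in group 1 (log2 ratio 0.25) and below it in group 2 (-0.45). The fitted log2 fold change was -0.11 ± 0.26 (adjusted p = 0.924 in edgeR). An interval of about 2 SE to each side ran from -0.62 to 0.40, so a moderate genotype difference was not excluded. Cftr is on the plus strand at chr6:18170687-18322768, with 7765 bp of exon in 29 blocks.

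Coch was the most abundant of the markers. It is on the plus strand at chr12:51593341-51605771, with 2998 bp of exon. It was at 412 and 360 CPM in controls and 297 and 269 CPM in mutants (3970 to 9554 counts). Both mutants were below both controls, at 72.1% of control in experimental group 1 and 74.7% in group 2. The log2 fold change was -0.44 ± 0.23, with an adjusted p of 0.334 in edgeR. DESeq2 gave nearly the same log2 fold change of -0.43 with an adjusted p of 0.0228, the one alternative of 12 in which Coch passed.

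The 4 ionocyte and Ascl3 genes had a median log2 fold change of -0.25. Their summed level was 462 and 439 CPM in controls and 343 and 335 CPM in mutants, and most of it came from Coch.

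To ask whether the neighbours of these genes in the same pathways differed too, longer lists were counted in the same fit. In the tuft and taste transduction list 8 of 12 genes were tested, with 1 lower, none higher and a median log2 fold change of -0.50. The gene that was lower was Gng13 (log2 fold change -0.97, adjusted p = 0.00453), a G protein gamma subunit that is also used by olfactory sensory neurons. It was at 358 and 164 CPM in controls and 245 and 62.5 CPM in mutants, and so was lower in control 2 than in mutant 1. Gnb1, the beta subunit with the highest level of the list, had a log2 fold change of -0.77 (adjusted p = 0.0857). Itpr3 had a log2 fold change of 0.11, and Plcb2, the phospholipase of the taste cascade, had -0.58 (adjusted p = 0.652 in edgeR).

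In the tuft cell identity and cytoskeleton list, none of 12 tested genes passed in either direction, and the median log2 fold change was -0.36. Dclk1, a kinase used as a tuft cell marker, was the highest of the list at 82.8 and 139 CPM in controls and 83.0 and 145 CPM in mutants. It did not separate the genotypes (log2 fold change 0.03, adjusted p = 0.977). Sh2d7, an adaptor-domain gene of tuft cells, was at 37.0 and 34.4 CPM in controls and 24.4 and 30.1 CPM in mutants, without overlap (-0.39, adjusted p = 0.388).

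None of 9 tested genes of type 2 immunity and eicosanoid synthesis passed, with a median log2 fold change of -0.25. The highest were Il13ra1, a receptor chain for interleukin 13 (0.45), and the alarmin Il33 (0.40). None of 3 tested cholinergic genes passed, with a median of 0.79. The choline transporter Slc5a7 had 37 counts in mutant 1, where the even background comes to 10.2, and none in the other samples, and Ache, acetylcholinesterase, had a log2 fold change of 0.79 (adjusted p = 0.563), with Slc44a1 at 0.25. Chat, by contrast, was below control in both mutants, and the difference between these genes was not tested.

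On the ionocyte side, none of 5 tested proton pump subunits passed (median 0.30), and none of 14 channels, transporters and factors did (median 0.11). Of the proton pump genes the highest were Atp6v1b1 (0.26) and Atp6v1c2 (0.33). Slc12a2, the sodium, potassium and chloride cotransporter, was the highest of the channel list (-0.23, adjusted p = 0.768), followed by Notch2 (0.22).

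The sorted cells also held other cell types, whose markers are given here because they moved with genotype or group. No sustentacular marker of 7 passed (median log2 fold change 0.22), with Cyp2g1 and Cyp2a5 the highest. Of 6 horizontal basal markers 2 were higher, Krt15 (1.11) and Egfr (0.56), and Krt5 and Krt14 had 0.41 and 0.43. Of 7 gland markers 1 was lower (Bpifb3, -1.12) and 1 higher (Bpifb9b, 1.42). Bpifb9b was at 72.9 and 3.19 CPM in controls and 213 and 7.18 CPM in mutants, so the genotypes overlapped. Its log2 difference of experimental group 2 over group 1 was -4.72. Of 7 ciliated cell markers 3 were lower (Foxj1, -0.80; Tekt1, -0.74; Ccdc40, -0.91), with a median of -0.74. The 7 ciliated markers summed to 557 and 349 CPM in controls and 446 and 191 CPM in mutants.

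None of 11 tested leukocyte markers passed, and the 13 listed summed to 732 and 816 CPM in controls and 387 and 879 CPM in mutants, most of it Lyz2 and Cd74. Without Lyz2 the other 12 summed to 508 and 124 CPM in controls and 233 and 296 CPM in mutants. The median log2 ratio of the tested leukocyte markers was -1.57 in experimental group 1 and 1.29 in group 2. Csf1r, a macrophage receptor, was at 65.3 and 7.95 CPM in controls and 21.3 and 14.4 CPM in mutants. Leukocytes also express genes of the tuft lists such as Alox5 and Alox5ap. The part of these other cells in the marker results was not tested.

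**Figure D3:**
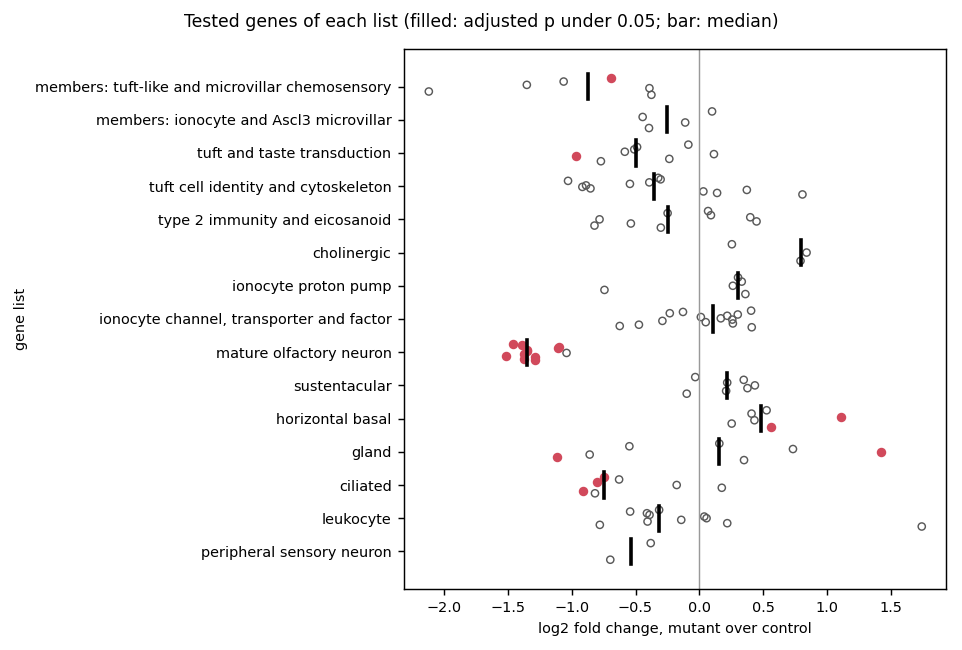
Log2 fold change, mutant over control, of every tested gene (circles) in the 2 marker sets and 13 further lists, with the list median as a bar and genes at an adjusted p under 0.05 filled. The mature olfactory neuron list lies between -1.51 and -1.04, whereas the 6 tuft, cholinergic and ionocyte lists beyond the markers have medians of -0.50 to 0.79 and 1 filled gene, Gng13, among the transduction genes.

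The other term of the same fit compared experimental group 2 with group 1 over both genotypes. These groups differed in parents, age, sex and treatment. Preparation and sequencing were also shared within a group, so none of these factors can be told apart. Of the 10 markers, 2 were higher in group 2 (Gnat3 and Cftr) and none was lower, beside 17.7% higher and 14% lower among all genes tested. Gnat3 had a log2 difference of 3.02 ± 0.72 (adjusted p = 0.00119), and was 21.0-fold higher in control 2 than in control 1. Cftr had a log2 difference of 1.58 ± 0.26 (adjusted p = 1.05e-07), and was 3.82-fold higher in control 2 than in control 1.

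The remaining 8 markers did not pass, with log2 differences from -0.53 (Chat) to 0.60 (Pou2f3). Trpm5 (-0.05) and Il25 (0.02) had the smallest. Beside Cftr in the ionocyte set, Foxi1 had 0.16, Ascl3 -0.24 and Coch -0.17, with SEs from 0.23 to 0.30. Whether markers of a set differed from each other in this was not tested.

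Some genes of the further ionocyte and tuft lists were also higher in group 2, as were 17.7% of all genes tested. In the proton pump list 3 of 5 were higher, led by Atp6v0a4 (1.38). In the channel, transporter and factor list 3 of 14 were higher (Slc12a2, 1.36; Kcnj16, 1.54; Notch2, 0.57) and 1 was lower, Bsnd (-1.55), the chloride channel subunit barttin. In the tuft identity list 2 of 12 were higher, Dclk1 (0.78) and Bmx (1.15). In the tuft and taste transduction list none of 8 was higher and 1 was lower, Gng13 (-1.54). The type 2 immunity and eicosanoid list had 3 of 9 higher, and the cholinergic list 2 of 3. The counts of the channel and tuft identity lists were near the share of all genes. Notch2 is also counted among the sustentacular markers.

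All 7 sustentacular markers were higher in group 2, with a median log2 difference of 1.56 and none at 0. Their summed level was 3539 and 4173 CPM in the control and mutant of group 1, against 10766 and 12733 CPM in those of group 2. Cftr and several of these transport genes thus had the same order of samples by group as sustentacular markers. The part of sustentacular cells in the Cftr and Gnat3 results was not tested. Of the mature olfactory neuron markers 9 of 12 were lower in group 2.

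**Figure D4:**
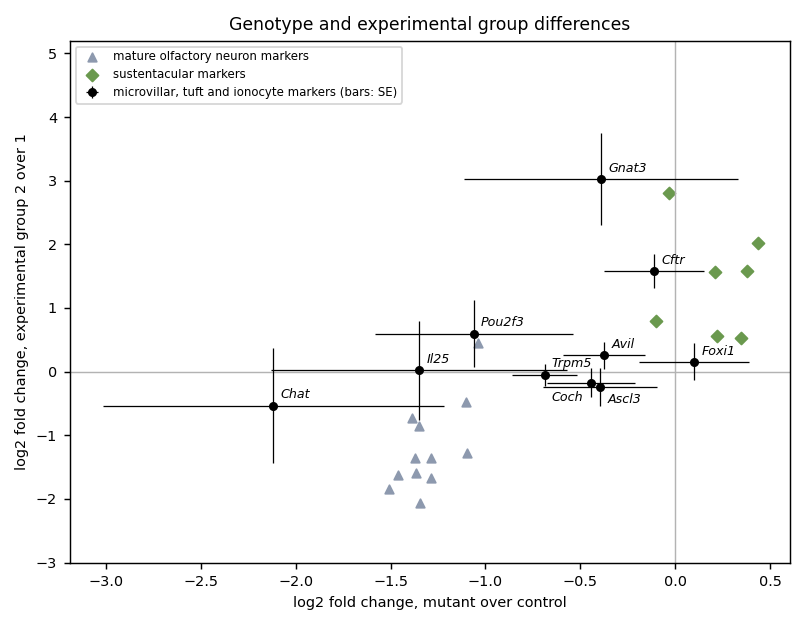
Log2 fold change of each marker between genotypes (horizontal axis, mutant over control) and between experimental groups (vertical axis, group 2 over group 1), with SE bars, beside mature olfactory neuron markers (triangles) and sustentacular markers (diamonds). Gnat3 (3.02) and Cftr (1.58) sit high on the group axis among sustentacular markers, and Trpm5, Avil, Ascl3 and Coch sit left of 0 on the genotype axis and near 0 on the group axis.

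The genes whose levels over the 4 samples were most like each marker were sought by the root mean square difference of centred log2 CPM, for the 7 markers with at least 20 counts in every sample. With 4 samples many genes share a pattern, and the match is a description. For Trpm5 the nearest were L1cam (difference 0.01), Gpd1 (0.02) and Dusp3 (0.03), and 34 of 15437 genes lay within 0.1. Coch was nearest to Nrp1, Rab6a and Rnf19b, with 222 genes within 0.1. Foxi1, nearest to Klhl21, Dgcr8 and Lmo4, had the most such genes, 541.

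Few genes lay within 0.1 of Cftr and Pou2f3. A fixed distance tends to take in fewer genes for a marker whose level varied widely, so these counts do not rank the markers. Cftr was nearest to Ppwd1, Ccl20 and Anks4b, with 7 genes within 0.1, and Pou2f3 to 4930430F08Rik, Cyp4x1 and Olfr305, with 1 gene within 0.1. Avil was nearest to Rnf214, Cc2d2a and Brox, with 189 genes within 0.1, and Ascl3 to Ankrd13a, Chchd8 and Zdhhc7, with 192.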

How the data were processed

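The deposited files hold raw read counts per gene symbol, from total RNA depleted of ribosomal RNA. The authors removed ribosomal reads, aligned to mm10 and counted them by HTSeq (intersection-nonempty). The submitters' processing notes name Bowtie2 2.0.6 and TopHat2 2.0.7. The strand setting and annotation are not given in the sources used here, so reads of a gene and an overlapping antisense gene may not be told apart. Each file ended with 5 tally lines, left out of library sizes and tests.

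Counts were fitted with edgeR 4.0.16 (R 4.3.3) after the study's model: genotype plus experimental group, over 1 CPM in at least 2 samples, TMM factors, tagwise dispersion, likelihood-ratio test and Benjamini-Hochberg adjustment over all 15438 genes, at 0.05. SE is that of the fitted log2 fold change. CPM used TMM-scaled totals; ratios within an experimental group used a prior count of 2 and have no test. Samples of an experimental group shared parents and preparation according to the study's methods, and deviated together (r = 0.52). Replicates differed by far more than counting noise (chi-square per degree of freedom 256 and 175). The 23337 symbols were matched by name to GENCODE vM21 (97.99%), which gave positions and exon lengths. The Wilson interval covers counting error only.

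Alternatives were DESeq2 1.42.0, the quasi-likelihood test of edgeR, no experimental group term, RLE factors, no filter, over 1 CPM in all 4 samples, thinning to the smallest library, each sample left out without the group term, and, added after seeing the data, subtraction of an even background from mutant 1. All 10 markers were named. From each list every gene past the threshold and the 2 genes with the highest mean CPM were to be named. Itpr3, Plcb2, Slc5a7, Slc18a3, Scn10a, Atp6v0a4, Kcnj16, Bsnd, Bmx, Csf1r, Alox5 and Alox5ap were named after their values were seen. The markers and lists were chosen with earlier results of these data known.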

Additional observations from a re-analysis of the deposited data

Results flagged for a closer look

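Gnat3 was higher in the mutant of experimental group 1 (log2 ratio 0.94) and lower in that of group 2 (-1.58), and Cftr likewise (0.25 and -0.45). These opposite directions were not tested, since each experimental group holds 1 mutant and 1 control. In mutant 1, 39.41% of alignments lay outside genes, above both controls (23.8% and 24.9%).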

How the results depend on the processing

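The count of markers lower in mutants was 2 by DESeq2, which added Coch, 0 without the replicate block (the experimental group term) and 0 to 0 when any 1 sample was left out, a fit that drops the block and lets the lone sample borrow the spread of the others. It was 1 in every other alternative, and no marker was higher in any. DESeq2 gave no adjusted p for Pou2f3, Gnat3, Chat and Il25, so its count rests on the remaining markers. Without the replicate block 0 genes in all were lower and 6 higher. With 1 sample left out 0 to 5 were lower and 3 to 33 higher. The quasi-likelihood test gave 115 higher. Gnat3 reversed to a log2 fold change of 2.19 without control replicate 2 (range -2.37 to 2.19 with 1 sample left out). Cftr reversed to 1.03 without control replicate 2 and to 0.21 without mutant replicate 1 (range -0.99 to 1.03). Of 112 alternative values of single markers, 103 kept their side of the threshold and direction, 5 (all Trpm5) lost the call and 1 (Coch) gained it. Precision was limited by 2 mice per genotype and, for Chat, Gnat3 and Il25, by counts under 20 in at least 1 sample.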
